A study of Drosophila melanogaster with 2 samples.

Results

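Binding of CG3065, an Sp/KLF-type zinc finger factor, was examined at 10 genes of the Notch pathway in whole Drosophila melanogaster embryos. They were N, Dl, Ser, fng, kuz, neur, mib1, Su(H), mam and H, 10 of 13945 protein-coding genes on the chromosome arms that carried peaks, and they were picked by name for their place in the pathway. The method was chromatin immunoprecipitation and sequencing (ChIP-seq). Flies carried CG3065 tagged at the C-terminus with GFP (green fluorescent protein), embryos of both sexes aged 0 to 16 h were pooled, and an anti-GFP antibody was used on chromatin sheared to 200 to 800 bp. The only group was this line, CG3065-GFP, with 2 biological replicates numbered 1 and 3, so there was no comparison between groups of samples and no test. Whole embryos mix all cell types and stages of this period, and no control precipitation from flies without the tag was analysed here.

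Notch is a cell surface receptor that is activated by ligands on the neighbouring cell. Ligand binding lets an ADAM protease and then gamma-secretase cut the receptor, and the freed intracellular domain enters the nucleus, where it joins Su(H) and mam to switch on target genes such as those of the Enhancer of split complex. In the fly embryo this exchange is best known for lateral inhibition, in which one cell of a proneural group becomes a neuroblast and holds its neighbours in the epidermal fate.

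Binding was read as peak summits, the single base at which each deposited peak is highest, counted within each gene and 5 kb either side. The main lists are those of the pooled replicates. The stricter list held 2451 peaks that passed a threshold on the irreproducible discovery rate (IDR), which were also the 2451 peaks of highest signal among the 30000 of the relaxed list. The relaxed list was deposited as peaks and background, so an entry in it need not mark binding. Of all IDR summits 11 fell in the windows of the 10 genes, which together covered 400.276 kb, and of the relaxed summits 148 did. The IDR summits belonged to N with 3, mam with 5, neur with 2 and Su(H) with 1. Dl, Ser, fng, kuz, mib1 and H had none.

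Of these 11 summits 9 lay in introns and 2 at the gene's own promoter, meaning within 500 bp of one of its annotated starts. For 8 of the 11 the nearest protein-coding start was that of the gene itself. The sequences at the IDR summits of N, neur and Su(H) are given below. Those at the 5 summits of mam are not printed. The last sequence is that of fng, whose promoter summit was the strongest one outside the IDR list. Each is RefSeq Release 6 (dm6) sequence centred on the summit, read 5′ to 3′ on the strand of the gene, reaching 50 bases to either side except for Su(H), where it stops before the first exon and holds 89 bases. Capitals mark a box of the kind bound by Sp/KLF factors, searched on both strands as CACACCC, with its variants, the word CACGCCC, the word CCCACCC and the word CCCGCCC, and no capitals means that none of these words was found.
N, intron, chrX:3140354-3140454, plus strand: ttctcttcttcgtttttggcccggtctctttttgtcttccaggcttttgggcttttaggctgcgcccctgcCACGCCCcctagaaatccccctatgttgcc
N, intron, chrX:3143548-3143648, plus strand: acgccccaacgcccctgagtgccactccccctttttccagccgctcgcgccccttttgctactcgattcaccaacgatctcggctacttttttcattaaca
N, intron, chrX:3162520-3162620, plus strand: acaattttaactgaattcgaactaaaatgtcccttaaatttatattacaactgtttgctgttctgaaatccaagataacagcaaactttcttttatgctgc
neur, own promoter, chr3R:9033953-9034053, minus strand: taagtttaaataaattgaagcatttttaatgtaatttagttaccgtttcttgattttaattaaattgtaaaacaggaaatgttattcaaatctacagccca
neur, intron, chr3R:9031928-9032028, minus strand: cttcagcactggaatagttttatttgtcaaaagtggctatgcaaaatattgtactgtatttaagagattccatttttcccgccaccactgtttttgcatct
Su(H), own promoter, chr2L:15039399-15039487, plus strand: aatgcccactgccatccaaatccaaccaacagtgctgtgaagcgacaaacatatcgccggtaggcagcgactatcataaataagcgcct
fng, own promoter, below the threshold, chr3L:20949908-20950008, minus strand: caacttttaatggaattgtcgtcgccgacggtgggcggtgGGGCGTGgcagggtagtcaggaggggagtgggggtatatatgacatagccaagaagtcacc

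The box stood in 1 of the 3 windows of N, the one nearest to the start, as CACGCCC, and in that of fng as its reverse complement. It was found in neither window of neur and not in the one of Su(H). Of the 5 IDR windows of mam 2 held it, also as CACGCCC. In all, 3 of the 11 IDR windows of these genes held the box (27.3%), beside 276 of the 2451 windows of all IDR summits (11.3%). Among relaxed summits outside the IDR list it was in 16 of 137 windows of these genes (11.7%) and in 2532 of 27549 of all (9.19%). Away from promoters, the strongest of these summits held it in N, Dl, H and mib1, and not in Ser, Su(H), mam, fng, neur and kuz. With 11 windows, 1 more or fewer moves the share by a large step, and no test was made. The site of Su(H) itself was searched on both strands as CGTGAGAA, the word CGTGGGAA, the word TGTGAGAA and the word TGTGGGAA. It was in 0 of the 11 IDR windows and in 1 of the 137 others (0.730%), against 0.734% of all IDR windows and 1.10% of all other relaxed windows. That 1 window was the summit upstream of N, at position 3132193. It also held 2 boxes and had a GC content of 69.3%. The median GC content of relaxed windows outside the IDR list was 41.6% for these genes and 40.6% for all. For IDR windows the median was 37.6% over the 11 and 34.7% over all. The windows of the 11 ranged widely, from 22.8% at the promoter of neur to 63.4% at 14005789 in mam. A word found in a window is not a tested site.

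**Figure D1:**
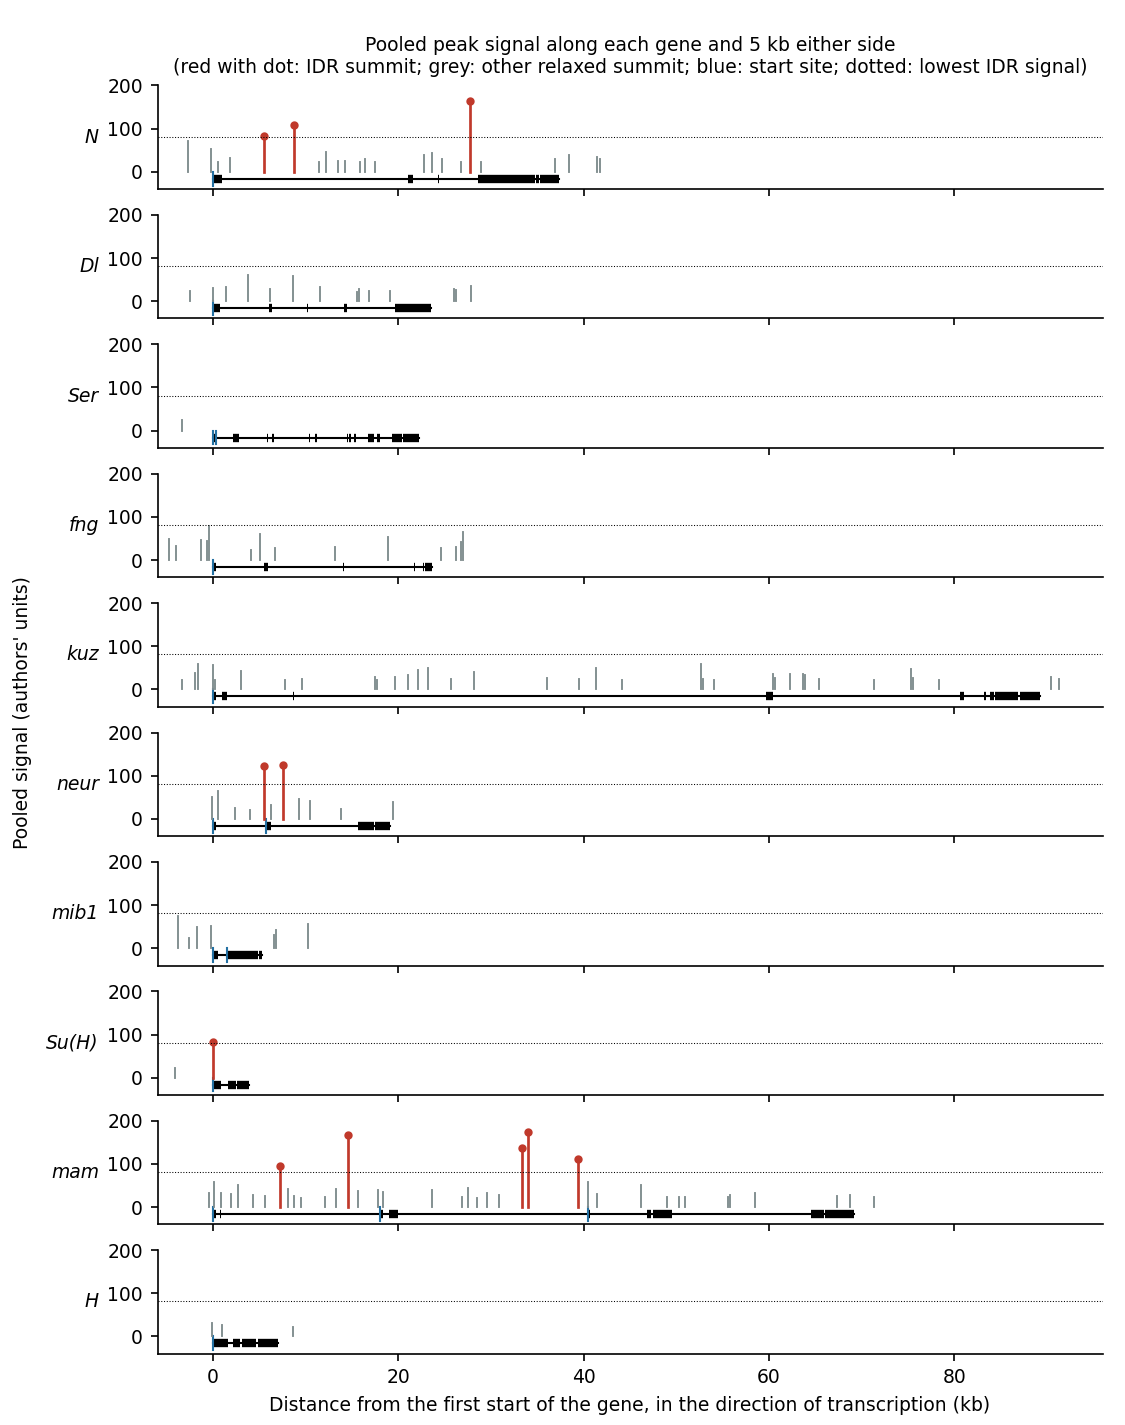
Pooled signal of each relaxed summit (vertical lines, in the authors' units) against distance from the first start of the gene in kb, for each of the 10 genes drawn to the same scale. Thick black bars are exons, thin lines introns, blue ticks annotated starts, red lines with dots IDR summits, grey lines other relaxed summits, and the dotted line is the lowest IDR signal, 81.3. The 5 red summits of mam and the 3 of N stand inside the genes, the 2 of neur lie on either side of its second start, and the long gene kuz has 35 grey summits and no red one.

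The map of summits along the genes shows the pattern that the following paragraphs give gene by gene. The signal of a peak is the value the authors' peak caller gave it, and it is compared here within a list. The maxima of replicates 1 and 3 were alike, at 537 and 531, while that of the pooled list was 1017. How the signals were normalized is not stated, so a common scale is not assumed. Ranks, counted from the strongest peak, are given where lists are set side by side. The lists differed in length, with 30000 relaxed peaks in replicate 1 and 26271 in replicate 3. In the windows of the 10 genes they held 150 and 111. A match missing in replicate 3 is thus one missing from a shorter list.

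N encodes the receptor. It lies on X from 3134870 to 3172221 on the plus strand and has 1 annotated start. Its 3 IDR summits were all intronic, at 5534, 8728 and 27700 bp downstream of that start. The first 2 shared the first intron, which is 12.147 kb long, and were 3194 bp apart. The third lay in intron 5 of 8, as counted over all transcripts together, and was the strongest of the 3. Its pooled signal was 165 (rank 555 of 30000), with 90.8 in replicate 1 (rank 566) and 74.7 in replicate 3 (rank 573). It was therefore placed almost alike in both replicates. The summit at 8728 bp had a pooled signal of 107, with 67.7 in replicate 1 (rank 1137) and 45.6 in replicate 3 (rank 1631). The summit at 5534 bp, at 83.1 in the pooled list (rank 2368), was close to the threshold. It ranked 3975 in replicate 1 with a signal of 36.8 and 2255 in replicate 3 with 39.0, so replicate 1 placed it below the first 2451. The nearest start of another gene was 10570 bp or more from each of the 3. For the third it was that of CG18508, which was nearer than the start of N.

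The promoter of N had no IDR summit. A relaxed one lay 249 bp upstream of the start with a pooled signal of 53.6 (rank 5288), and both replicates had it, at 32.1 and 27.7. A stronger relaxed summit, at 72.3, lay 2677 bp upstream, in the gene body of the neighbouring gene kirre, with 39.7 in replicate 1 and 31.6 in replicate 3. Over the whole window N had 23 relaxed summits, or 4.86 per 10 kb. Of these 15 were intronic.

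Dl and Ser encode the transmembrane ligands Delta and Serrate, and neither window held an IDR summit. Dl (listed as Delta in the annotation; 3R, 19302731 to 19326217, minus strand) had 14 relaxed summits, the strongest in introns. These were at 3796 bp from its start with a pooled signal of 61.4 (rank 4123) and at 8585 bp with 58.8 (rank 4458). Replicate 1 gave them 41.3 and 39.9, but replicate 3 gave 19.1 and 14.1, the latter close to the lowest signal of that list, 13.7. The windows of both held an Sp/KLF box. At the promoter of Dl a summit 2 bp from the start had a pooled signal of 30.6, near the median of the relaxed list (30.9), and a match in replicate 1 only. Ser (3R, 27172090 to 27194267, minus strand) had a single relaxed summit in its window, 3330 bp upstream of its nearest start, at 24.8 (rank 23195). Replicate 1 had no summit within 200 bp of it and replicate 3 had one at 16.5. At 0.311 per 10 kb Ser had the lowest density of the 10, although at 22.2 kb it is close to Dl (23.5 kb) and fng (23.6 kb) in length, which had 4.18 and 4.16 per 10 kb.

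fng encodes the glycosyltransferase Fringe, which modifies the receptor and shifts its response between the ligands. It lies on 3L from 20925891 to 20949512 on the minus strand. Its promoter summit, 446 bp upstream of the start, had a pooled signal of 79.6 and a rank of 2549, just outside the IDR list, whose lowest peak had 81.3. The lowest IDR summit of the 10 genes, that of Su(H), had 82.1 and a rank of 2422, so these summits on either side of the threshold differed little. In the replicates the fng summit ranked 3482 (signal 39.3) and 2509 (37.2). A second summit of fng, 27003 bp downstream of its start and outside the gene, had 63.9 in the pooled list and a match in replicate 1 only. There its signal was 47.6 and its rank 2368, within the first 2451 of that replicate. The strongest intronic summit of fng, at 5108 bp, had 60.5.

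kuz encodes Kuzbanian, the ADAM protease that makes the first of the ligand-dependent cuts. It is the longest of the 10 genes (2L, 13550139 to 13639411, plus strand, 89.3 kb). It had 35 relaxed summits, 27 of them intronic, and no IDR summit. Its strongest was in an intron 52696 bp from the start, with 60.1 in the pooled list (rank 4280), 24.1 in replicate 1 and 35.5 in replicate 3. At the promoter a summit 2 bp from the start had 56.9, with 32.1 and 23.6 in the replicates. A summit 1664 bp upstream, in the gene B4, had 58.6 in the pooled list. In replicate 3 it ranked 2448 with a signal of 37.7, just within the first 2451, but in replicate 1 it ranked 13098 with 19.0. Per 10 kb kuz had 3.53 relaxed summits, fewer than N (4.86) and mam (4.80).

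neur and mib1 encode Neuralized and Mind bomb 1, the E3 ubiquitin ligases that drive endocytosis of the ligands in the sending cell. neur (3R, 9020348 to 9039471, minus strand) has 2 annotated starts, and an IDR summit stood on each side of the second, at 9033731. One lay 272 bp upstream of that start, inside the first intron of the longer transcripts, with a pooled signal of 121 (rank 1103). Replicate 1 gave it 47.5 (rank 2381) and replicate 3 gave 58.3 (rank 1003). The other lay 1753 bp downstream in intron 2 of 3, with a pooled signal of 124 (rank 1052), 68.3 in replicate 1 (rank 1107) and 58.2 in replicate 3 (rank 1009). The 2 summits were 2025 bp apart and nearly equal in pooled signal. The promoter of neur that is counted here is thus its internal one. At the first start, which it shares as a neighbourhood with the divergent gene hyx, a relaxed summit 162 bp upstream of neur had 50.8 and was matched in replicate 1 only. That summit was 133 bp from the start of hyx. The strongest relaxed summit of neur outside its promoters and the IDR list, at 64.9, lay 575 bp inside the gene and 136 bp from another start of hyx, and cannot be assigned to either gene by position.

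mib1 (3L, 16006552 to 16011812, minus strand) had 7 relaxed summits and no IDR summit. The strongest lay 3779 bp upstream of its start, outside any protein-coding gene, with a pooled signal of 75.7 (rank 2794), 42.9 in replicate 1 and 31.9 in replicate 3. Its window held 2 Sp/KLF boxes. The promoter summit, 172 bp upstream of the start, had 51.6, with 27.9 in replicate 1 and no match in replicate 3.

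Su(H) encodes the DNA-binding protein through which Notch acts on its targets. It is the shortest of the 10 genes (2L, 15039488 to 15043334, plus strand, 3.85 kb), and it alone among them had its IDR summit at the first start. The summit lay 39 bp upstream, with a pooled signal of 82.1, 39.3 in replicate 1 (rank 3479) and 41.2 in replicate 3 (rank 2046). Like the first summit of N, it was outside the first 2451 of replicate 1. The start of CIAPIN1, the next gene, was 588 bp away. The window held 1 other relaxed summit, 53 bp from the start of yellow-c, with 21.7 and no match in either replicate.

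mam encodes Mastermind, the co-activator that completes the nuclear complex. It lies on 2R from 13991203 to 14060356 on the plus strand, is 69.2 kb long and has 3 annotated starts. Its 5 IDR summits were all intronic, and they carried the 2 highest signals of the 10 genes. The strongest, at 14025212, had 174 in the pooled list (rank 485), 97.3 in replicate 1 (rank 477) and 81.4 in replicate 3 (rank 463). The next, at 14005789, had 168 (rank 526), but the replicates placed it further apart, at 106 (rank 387) and 58.4 (rank 1001). It lay 3410 bp upstream of the second start and 192 bp from the start of an annotated non-coding RNA. The summit at 14024539 had 137 (rank 853), with 52.4 in replicate 1 (rank 1943) and 78.2 in replicate 3 (rank 514). It was 673 bp from the strongest one. Both lay in the 20.481 kb intron before the third start, 7124 and 6451 bp upstream of it. For both, the nearest start was that of CG18371, 4081 and 3408 bp away. The remaining summits were at 14030546, 1117 bp upstream of the third start, with 111 (rank 1337), and at 13998479, 7276 bp downstream of the first start, with 94.6 (rank 1831). In the replicates they had 55.2 and 50.9, and 46.8 and 45.4. The last of these ranked 2457 in replicate 1, just past the first 2451.

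The promoters of mam had relaxed summits at all 3 starts, 5 in number. Of these, the summit 450 bp upstream of the first start was only 46 bp from the start of the neighbouring gene RN-tre. The strongest were 90 bp downstream of the first start (586 bp from that of RN-tre), with a pooled signal of 59.1, and 17 bp upstream of the third, with 58.2. In replicate 1 they had 18.7 and 37.6 and in replicate 3 they had 36.3 and 23.0, so the replicates ordered them in opposite ways. The strongest relaxed summit of mam outside promoters and the IDR list was intronic, at 51.8. The highest IDR signal of the gene was thus 174 in an intron, against 59.1 at a promoter.

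H encodes Hairless, the adaptor that turns Su(H) into a repressor when no signal arrives. Its window (3R, 20621938 to 20628915, plus strand) had 3 relaxed summits and no IDR summit. The promoter summit, 70 bp upstream of the start, had a pooled signal of 32.2 and a match in replicate 1 only, at 23.8. An exonic summit at 1004 bp had 27.4, and replicates 1 and 3 gave it 11.7 and 16.8.

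**Figure D2:**
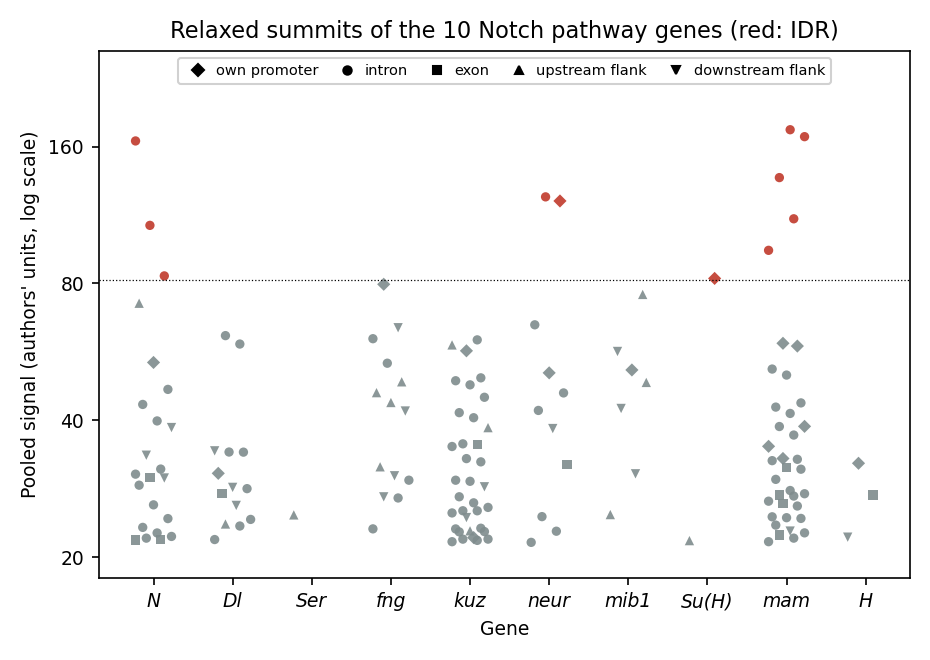
Pooled signal (authors' units, log scale) of each of the 148 relaxed summits by gene, with symbols for its place in or beside the gene. Red marks the 11 IDR summits and the dotted line their list's lowest signal, 81.3. The red points reach 174 in mam and 165 in N, fng comes within reach of the line at 79.6, and H and Ser stay at or below 32.2.

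Set against all genes, the count of members with binding was near the background. An IDR summit lay in the window of 4 of the 10 genes and of 4623 of 13945 protein-coding genes (33.2%). The window grows with the gene, and these genes are long, with a median of 22.8 kb against 2.17 kb. Among genes of 20 kb or more, 508 of 1013 had one (50.1%), and of the 6 members that long, N and mam did while Dl, Ser, fng and kuz did not. At the own promoter 2 of the 10 had an IDR summit, against 1678 of all genes (12%). Neither of the 2, neur and Su(H), reaches 20 kb, and of the genes that do 167 had one (16.5%). With relaxed summits included it was 9 of the 10, all but Ser, against 6876 of all genes (49.3%). Among genes of 20 kb or more it was 685 of 1013 (67.6%), and 5 of the 6 long members. In an intron 3 of the 10 had an IDR summit, against 578 of all genes (4.14%). Among genes of 20 kb or more it was 297 of 1013 (29.3%), and 2 of the 6 long members.

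All 11 IDR summits of these genes were at the own promoter or in the gene body and 0 in the flanks. That of Su(H), at its promoter, lay 39 bp upstream of the gene itself. Over all protein-coding genes 3820 of 6525 pairs of a gene and a summit in its window were in a flank (58.5%), and over genes of 20 kb or more 262 of 982 (26.7%). These shares are not scaled by length, and flanks of 5 kb take up a smaller part of the window of a long gene. A flank summit can lie at the promoter of a neighbour and count for both genes. Introns of the 10 genes held 0.375 IDR summits per 10 kb (9 in 239.941 kb), against 0.145 over all genes and 0.116 over genes of 20 kb or more. Of that count 5 were in mam, and without it the density was 0.221 (4 in 181.358 kb). By gene it was 1.10 for N, 0.853 for mam, 0.708 for neur and 0 for the other 7. Own promoters held 1.40 per 10 kb (2 in 14.286 kb) against 1.02 over all genes. Exons of the 10 genes held 0 in 51.049 kb. Exon summits were rare everywhere, at 0.0269 per 10 kb over all genes and 0.0308 over genes of 20 kb or more. Over the whole windows the density was 0.275 for the 10 genes, 0.187 for the 9 without mam and 0.277 for all genes. For genes of 20 kb or more it was 0.157, and for the 6 members that long 0.246. Counted by gene, 5 or more intronic IDR summits were found in 11 of all genes, mam among them, and 3 or more in 65, with N and mam among them. All of the 11 and 51 of the 65 were genes of 20 kb or more.

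**Figure D3:**
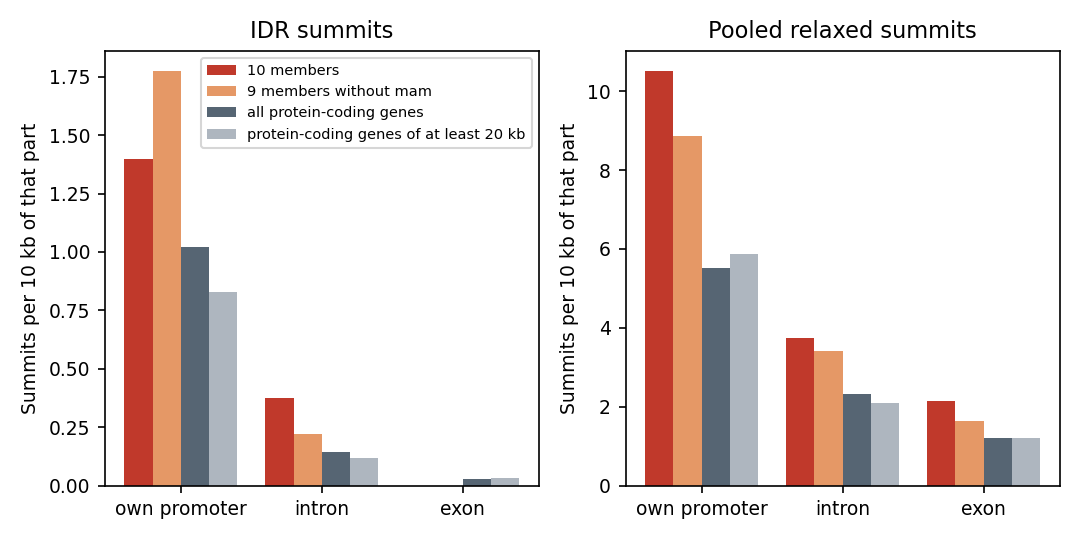
Summits per 10 kb of own promoter, intron and exon (bars, starting at 0) for the 10 genes, the 9 without mam, all protein-coding genes and those of at least 20 kb, with IDR summits on the left and pooled relaxed summits on the right. The intron bar of the 10 genes is at 0.375 for IDR summits and falls to 0.221 without mam, and the relaxed bars of the 10 genes are above those of all genes in each place.

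The relaxed summits showed a density above that of all genes in each place. Windows of the 10 genes held 3.70 relaxed summits per 10 kb, against 2.63 for all genes and 2.23 for those of 20 kb or more, and without mam they held 3.43. Introns held 3.75 against 2.31 over all genes, and own promoters 10.5 against 5.52. The members were far from uniform, from 0.311 at Ser through 1.44 at Su(H) and 1.77 at H to 4.86 at N. The depth of sequencing is unknown, since the lists give no read counts. The authors called the peaks with a control, but no control was set beside these entries here.

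Among the IDR summits, promoter and intronic ones overlapped in strength. The 2 promoter IDR summits had 82.1 and 121, and the 9 intronic ones lay between 83.1 and 174 with a median of 124. Of the 11, 6 were at or above the median of all IDR peaks (116), and their own median was 121. Below the threshold the order was the other way. The 13 promoter summits there had a median of 50.8 and a highest value of 79.6, and the 81 intronic ones had 28.3 and 64.9. The value of 64.9 is that of the neur summit 136 bp from a start of hyx, and the next was 61.4, in Dl. Upstream flanks had a median of 41.1 over 14 summits, downstream flanks 30.3 over 18 and exons 27.4 over 11.

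The replicates agreed for all 11 IDR summits in position, and less well in rank. Each had a summit within 200 bp in both replicates, at most 65 bp from the pooled summit and at a median distance of 11 bp. The first 2451 ranks of both replicates included 8 of them. The exceptions were the first summit of N, that of Su(H) and the one of mam at 13998479, all 3 ranked lower in replicate 1. Spearman's rho between the replicate signals was 0.736 over the 11 summits and 0.578 over the 60 relaxed summits matched in both, as a description over summits that share 2 libraries. Of the 137 summits outside the IDR list 49 were matched in both replicates, 71 in 1 and 17 in neither. Neither these counts nor the 8 of 11 were set against all IDR peaks or all other relaxed peaks. Whether these genes differ from the whole lists in replicate match or rank was therefore not tested. IDR peaks were chosen for agreement and for pooled signal, so their better match follows from the choice. Where 2 pooled summits lie close together they can match the same replicate summit, which was so for 6 summits in replicate 1 and 8 in replicate 3, none of them in the IDR list.

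**Figure D4:**
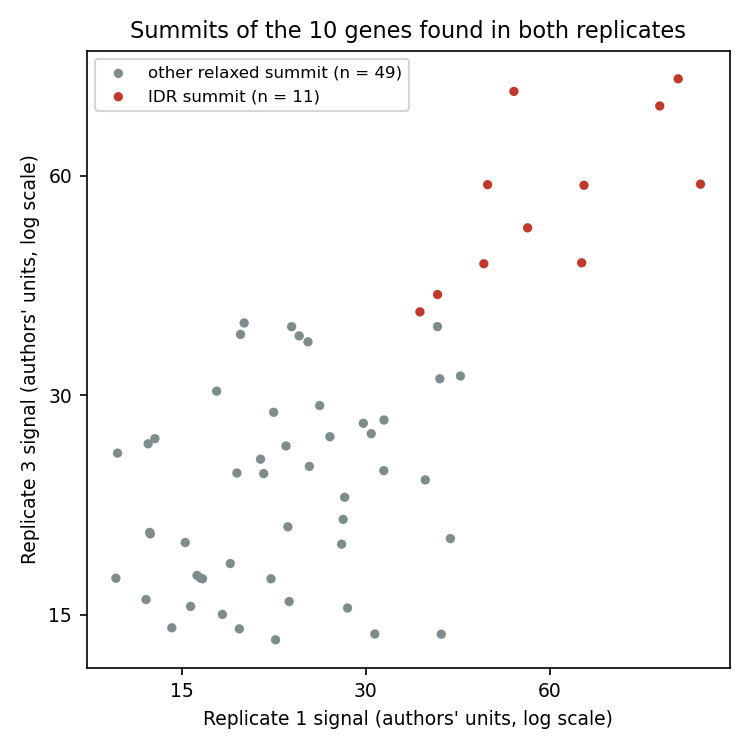
Signal in replicate 3 against signal in replicate 1 (authors' units, each on its own log scale) for the 60 summits of the 10 genes that were matched in both. Red points are the 11 IDR summits and grey points the 49 others. Red points fill the upper right, and the lowest of them, the first summit of N at 36.8 and 39.0, lies beside the strongest grey ones.

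Other genes of the pathway give the surroundings of these 10. A list of 54 was drawn up by known role. An IDR summit lay in the window of 34 of them (63.0%) and at the own promoter of 13 (24.1%), beside the 33.2% and 12% of all genes. Neighbouring genes of the list share summits, and the 34 genes rested on 37 distinct summits. By role, the window count was 6 of 16 for ligand regulation and trafficking, 5 of 7 for receptor processing, 2 of 2 for glycosylation, 7 of 12 for nuclear cofactors and 14 of 17 for targets. The own-promoter count was 5, 2, 1, 3 and 2. The window counts include summits of neighbours: 17 of the 34 genes had a summit whose nearest protein-coding start was their own, in the same order 5, 1, 1, 3 and 7. For 15 of the 34, every summit in the window was nearer to the start of another gene and within 500 bp of it. Among these were nct, Tace, kul and Fur1, 4 of the 5 counted for receptor processing, as well as O-fut1, mib2, ago, CycC and vg.

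Promoter summits in the wider list were stronger than those of the 10 genes in several cases. lgd, a regulator of receptor sorting in endosomes, had the strongest, with 382 (rank 63) at 111 bp upstream. That summit was also 187 bp from the start of Reps. It was followed by Fur1, a furin protease, with 287, though that summit is nearer to the start of Vps33B, 182 bp away. gro, the co-repressor Groucho, had 282.5 and numb, the inhibitor of the receptor in asymmetric division, had 263. E(spl)m3-HLH, a bHLH repressor of the Enhancer of split complex, had 182 at 407 bp upstream, and E(spl)m7-HLH had 123 at 334 bp. rumi, an O-glucosyltransferase that acts on the receptor, had 153, at a summit 167 bp from the start of CG7029. The clathrin adaptor gene AP-2alpha and the co-repressor gene ebi shared 1 summit between their starts, with 143. The gamma-secretase subunit gene aph-1 had 117, the acetyltransferase gene nej 105, the recycling endosome gene Rab11 90.8 and the kinase gene Nak 83.7. The promoter summit of Nak was nearer to Tango6, 66 bp away, and that of aph-1 was 305 bp from the start of Snx21. Outside the promoter window nej, Rab11 and Nak had stronger IDR summits. These had 183 at 650 bp upstream of nej, 164 in an intron of Rab11 and 91.9 in an intron of Nak.

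Of the genes without a promoter IDR summit, E(spl)m2-BFM, a Bearded family gene, had most in its window, with 3. Next came skd, kul, Smr, ct, E(spl)m8-HLH and E(spl)m4-BFM, which tied at 2. Those of Smr, a co-repressor gene, and ct, which encodes the transcription factor Cut, were intronic like those of N and mam. The highest were 216 in Smr and 118 in ct. Those of skd and kul lay within 172 bp of the starts of other genes. Over the 43.388 kb of the Enhancer of split complex (3R, 25997621 to 26041008) and 5 kb on each side of its genes there were 7 distinct IDR summits, with signals from 89.5 to 282.5. They gave 10 of the 11 genes a summit in the window and 2 a summit at the promoter. The one at 282.5 is that of gro at the edge of the complex, and another, at 187, was 339 bp from the start of CG43116. With 7 summits shared by 10 genes, the count for targets is not one of independent genes.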

How the data were processed

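ChIP-seq peak lists of CG3065-GFP embryos, replicates 1 and 3, were used. Per the file records, the authors called relaxed peaks on each replicate and on both pooled, with a control, and deposited IDR-thresholded peaks. Column 7 holds the signal per peak deposited by the authors, whose normalization is not stated, and column 9 the −log10 q that the authors deposited, which reached down to 0.0314 in the pooled list and its maximum in 88.1% of IDR peaks, so ranks follow the signal. The aligner, the peak caller and the IDR cutoff were not given in the sources used here. Lists in dm3 were not used. Read depth is unknown.

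From these lists, summits (1-based dm6) were placed in the Ensembl release 115 annotation (BDGP6 version 54). All 10 genes had the same span in RefSeq, and 1 (Dl) was matched by synonym. A summit in a window (gene and 5 kb either side) took the first of own promoter (within 500 bp of any own start), exon, intron and flank. It was matched to the nearest replicate summit within 200 bp. Introns are the gaps between the merged exons of all transcripts. Sequence windows reached 50 bp either side and were cut to bases outside annotated exons.

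The members and lists were chosen with earlier results of these data known. Named are all members, every IDR summit, the strongest relaxed summit of each gene at its promoter and elsewhere, and of the wider list (3 genes matched by synonym) those with a promoter IDR summit and the next 5 by window count, extended by a tie. The printed sequences first comprised own-promoter IDR windows; those of intronic summits and fng, further relaxed summits, the wider-list genes named only for summits of neighbours, and the settings without mam and with genes of 20 kb or more, were added after the values were seen. No test was made, since there is 1 group. The assignment code was checked on simulated data, and 799 of 799 planted summits came out as planted, including some just outside a window. Their places were drawn from the intervals that the assignment itself uses, so the check covers the code and not the annotation. Python 3.11.15, numpy 2.4.6, pandas 2.3.3, scipy 1.17.1 and matplotlib 3.10.9 were used.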

Additional observations from a re-analysis of the deposited data

How the results depend on the processing

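In 61 recalculations under 17 settings, 41 values stayed within the spread between replicates or within 1.5 times a count, and 20 did not. For densities and the signal difference, that spread is the standard deviation of the 2 values obtained by leaving out 1 replicate. Those 2 values were thus judged against a spread that they set themselves. For the signal difference they are also on another scale than the pooled value. The split into 41 and 20 is therefore a tally and not a measure of stability. Those 41 include the median promoter minus intronic signal in percentiles, which was compared by sign only. That difference alone could change sign, since counts and densities cannot, and it did not. Some values could hardly move. The median density is 0 while most members have no summit, and IDR summits were chosen for agreement between replicates. With IDR peaks at or above their median signal only, there were 6 summits, all 6 matched in both replicates, 5 of them intronic and 1 at a promoter (1 gene), a density of 0.150 per 10 kb, and a median promoter minus intronic signal of -43.2 (-22.3 as reported, with 1 or 2 promoter summits). Su(H) then dropped out, and 1 summit of N, 3 of mam and 2 of neur were left. A promoter window of 250 bp, or the first start alone, left 1 promoter summit and 1 gene, since the summit of neur is 272 bp from its second start; the difference with 250 bp was -40.7. Counting the gene body alone gave 0.333 per 10 kb, against 0.275. Leaving out either replicate, with the IDR list replaced by the 2451 strongest peaks of the remaining replicate, gave 1 to 2 promoter summits and 1 to 2 genes, a median density of 0 to 0.0504 per 10 kb (0 as reported), relaxed densities of 2.77 to 3.75 per 10 kb and a promoter minus intronic difference of -20.8 to -8.44 on that replicate's own scale. Without replicate 3 Su(H) and 1 summit each of N and mam were lost and fng gained one, and without replicate 1 kuz gained one. Relaxed summits matched in both replicates had a density of 1.50 per 10 kb, against 3.70. Leaving out mam, the intron density was 0.221. No paired analysis was possible because there is 1 group. No read counts, depth or control data were used here. A weak summit such as that of Su(H) therefore cannot be told from one just under the threshold, such as that of fng.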
